A study of Homo sapiens with 12 samples.

Results

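The genes described here are 10 members of the YAP and TEAD pathway, chosen by symbol: YAP1, WWTR1, TEAD1, TEAD4, CCN1, CCN2, ANKRD1, AMOTL2, LATS2 and AJUBA. All 10 were found in both expression tables, which hold 30703 genes for KYSE150 and 30106 for KYSE410. KYSE150 and KYSE410 are established lines of human esophageal squamous carcinoma, all with the genotype label WT, so the samples are tumour cells alone in culture and no other cell type enters the comparison by design. Each line was sampled at 21% oxygen (normoxia) and at 0.5% oxygen (hypoxia), with 3 libraries in each of the 4 groups, to profile expression under low oxygen. The labels give 48 h for the hypoxic cultures and a time of 0 for the normoxic ones, whereas the design text of the series states equal durations. Nothing in the labels says that replicates were separate cultures, so the p-values measure only the spread between these libraries.

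YAP1 and WWTR1 encode YAP and TAZ, transcriptional coactivators that cannot bind DNA themselves and act mainly through the TEAD factors. In the Hippo pathway the kinases encoded by STK3 and STK4 activate LATS1 and LATS2, which phosphorylate YAP and TAZ and keep them out of the nucleus. Cell contact, matrix stiffness and tension feed into this cascade, and in squamous epithelia the coactivators are known for driving growth. Much of this control acts on the proteins, and RNA levels do not read it. Values are taken as FPKM (fragment counts divided by transcript length and by library size), a unit inferred from the values. On that scale levels can be compared between genes only roughly, as libraries also differed with transcript length. Log2 changes are hypoxia minus normoxia on the log2(FPKM + 1) scale, which understates the change of low genes. A gene was called when limma's adjusted p, corrected over all tested genes of the line, was under 0.05.

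Libraries held 22787 to 24667 genes above 0, and their depth is unknown. CA9, NDRG1, BNIP3 and ADM, used as markers of hypoxia, rose in both lines, CA9 reaching 76.8 ± 4.24 FPKM from 9.80 ± 0.292 in KYSE150, and 54.7 ± 4.99 from 4.05 ± 0.354 in KYSE410 (SD, n = 3). The simple-epithelial keratin genes KRT8 and KRT18 were at 264 FPKM or more in all libraries. In KYSE150 the squamous markers TP63, KRT5 and KRT14 and the cadherin gene CDH1 were at most 0.432 FPKM in any library, KRT5 was at 0 in the 3 normoxic ones, and only SFN (45.6 FPKM in normoxia) was well expressed, so squamous identity rests largely on the label there. In KYSE410 the 4 epithelial markers summed to between 1915 and 2038 FPKM under normoxia and 1051 and 1104 in hypoxia. The 4 squamous markers summed to between 311 and 320.0 and then 676 and 692. Of these TP63, KRT5 and KRT14 rose (KRT5 from 168 to 477 FPKM), while SFN went from 101 to 94.5. The part of these shifts in the results was not tested. Fibroblast markers summed to between 5.02 and 6.64 FPKM in KYSE150, nearly all COL1A1, and to at most 1.04 in KYSE410. Leukocyte and endothelial markers summed to at most 0.666 and 0.143 FPKM in any library. KYSE150 normoxia replicate 2 stood apart from its group, with an SD of the log2 difference from replicates 1 and 3 of 0.339 and 0.369, against 0.153 to 0.197 for the other same-group pairs. In KYSE410 the sample-sheet numbers are 38 to 40 for normoxia and 56 to 58 for hypoxia. In KYSE150 they are 50 to 52 and 53 to 55. The labels do not say what the numbers stand for, and oxygen and number cannot be told apart in either line.

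Most of the pathway RNAs that moved were lower in hypoxia. In KYSE150, 6 of 9 tested members fell and 1 rose, where 62.3% of all tested genes were called, 38.8% lower and 23.5% higher. In KYSE410, 7 of 10 fell and 1 rose, where 83.1% of all tested genes were called, 51.9% lower and 31.2% higher. Of these falls, those of YAP1 and LATS2 became 0.065 and 0.20 when the trend of the libraries with transcript length was removed. TEAD1, TEAD4, CCN2, AMOTL2 and AJUBA fell in both lines, and WWTR1 rose in both. The median log2 change of the members was -0.73 in KYSE150 and -0.52 in KYSE410, beside -0.13 and -0.21 over all tested genes. Since lower calls are common in both lines, the counts alone do not set the members apart. The members were also chosen with earlier results of these data known.

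**Figure D1:**
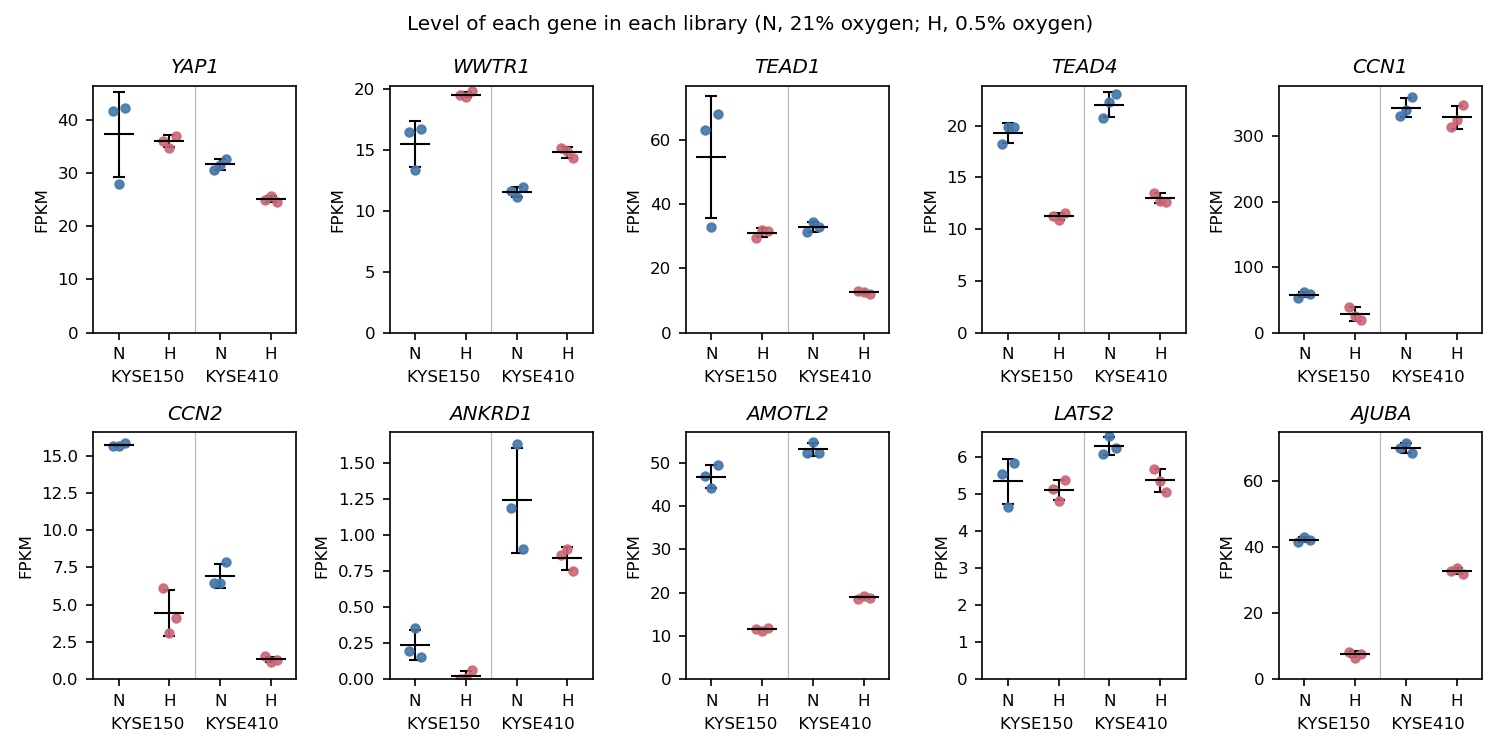
Level of each of the 10 genes in FPKM (vertical axes, each from 0) in the 12 libraries, by line and oxygen level. Points are libraries, and bars are the mean ± SD of 3. AMOTL2, AJUBA, CCN2 and TEAD4 are lower in all hypoxic libraries of both lines, WWTR1 is higher in them, and CCN1 lies above 313 FPKM in every KYSE410 library.

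The coactivator genes did not move together. YAP1 (chromosome 11, 102110461 to 102233423, plus strand) had 41.6, 27.9 and 42.2 FPKM in the KYSE150 normoxia libraries and 36.0, 34.8 and 37.0 in hypoxia. The hypoxic values lay inside the normoxic range, and the change of -0.03 ± 0.15 (SE) was not called (limma adjusted p = 0.886, 95% interval -0.38 to 0.32). The low normoxic value was that of replicate 2, and without it YAP1 passed at -0.22 (limma adjusted p = 0.0025). In KYSE410, YAP1 had 30.6, 31.6 and 32.6 FPKM under normoxia and 24.9, 25.7 and 24.6 in hypoxia. The groups were apart and YAP1 fell by 0.32 on the log2 scale (SE 0.04, limma adjusted p = 6.449e-05). That change was 0.065 and not called (limma adjusted p = 0.160) when the trend of the libraries with transcript length was removed.

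WWTR1 (chromosome 3, 149517235 to 149736714, minus strand) had 16.4, 13.3 and 16.7 FPKM in KYSE150 normoxia and 19.5, 19.3 and 19.8 in hypoxia. In KYSE410 it had 11.6, 11.1 and 11.9 FPKM under normoxia and 15.2, 14.9 and 14.3 in hypoxia. In both lines every hypoxic library was above every normoxic one, and WWTR1 was the member that rose, by 0.32 ± 0.10 in KYSE150 (SE, limma adjusted p = 0.0190) and 0.33 ± 0.05 in KYSE410 (adjusted p = 1.482e-04). The groups were apart with hypoxia higher for 27% of tested genes in KYSE150 and 31.9% in KYSE410. The call was lost in both lines when libraries were rescaled to a common sum (adjusted p = 0.0521 and 0.0674), and in KYSE150 without any of the hypoxia replicates 1, 2 or 3 (adjusted p = 0.0553 to 0.0634).

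Multiplying a library by a factor leaves the ratio of YAP1 to WWTR1 within it unchanged. In KYSE150 it was 2.53, 2.10 and 2.52 in normoxia and 1.85, 1.80 and 1.87 in hypoxia. In KYSE410 it went from 2.64, 2.85 and 2.74 to 1.64, 1.72 and 1.72. YAP1 RNA thus exceeded WWTR1 RNA in all 12 libraries, and the excess was smaller in each hypoxic library than in any normoxic library of its line. An exact two-sided permutation test gave p = 0.1 in each line, the smallest that 3 against 3 allows (adjusted p = 0.133 over 12 such measures). The sum of both coactivator RNAs was 52.7 ± 9.97 and 55.5 ± 1.35 FPKM in KYSE150 and 43.1 ± 1.23 and 39.9 ± 0.874 in KYSE410 (SD, n = 3, normoxia first). Exons of an antisense gene cover 9.97% of the YAP1 exon bases and 9.45% of those of WWTR1, and the strand setting of the counting is not given in the sources used here, so their reads cannot be told apart there.

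**Figure D2:**
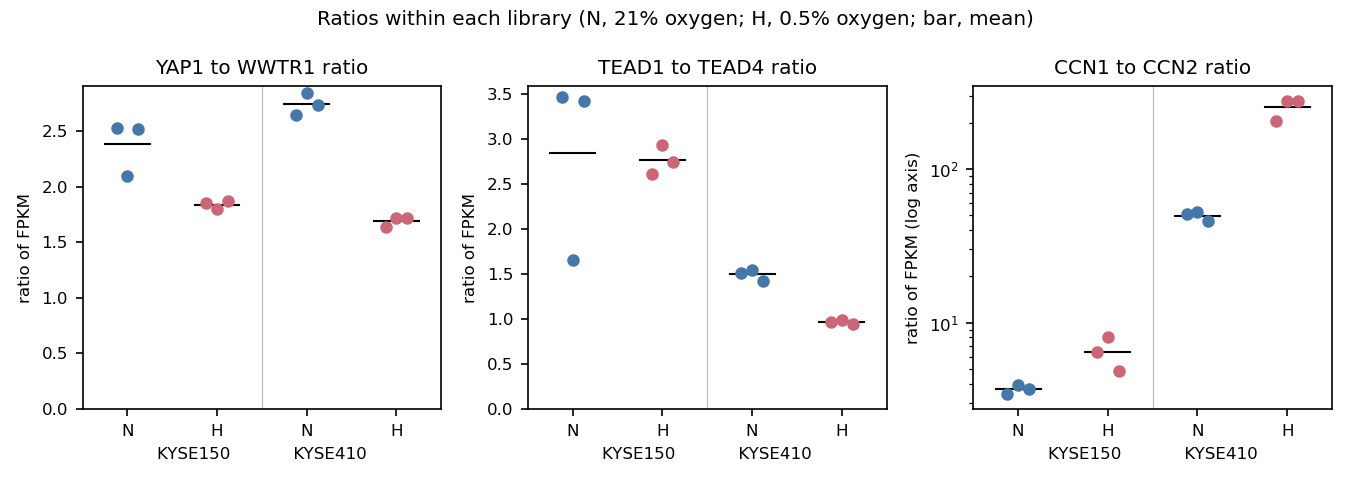
Ratio of 2 FPKM values within each library (vertical axes; the CCN1 to CCN2 axis is logarithmic), by line and oxygen level, with the mean as a bar. The YAP1 to WWTR1 ratio is lower in hypoxia in both lines (KYSE410: 2.74 to 1.69), the TEAD1 to TEAD4 ratio overlaps in KYSE150, and the CCN1 to CCN2 ratio reaches 254 in KYSE410 hypoxia.

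The TEAD genes encode the DNA-binding partners of YAP and TAZ. TEAD4 (chromosome 12, 2959330 to 3040673, plus strand) had 18.2, 19.9 and 19.8 FPKM in KYSE150 normoxia and 11.3, 10.9 and 11.5 in hypoxia. KYSE410 had 20.7, 22.2 and 23.1 in normoxia and 13.5, 12.7 and 12.6 in hypoxia. The groups were apart in both lines, and the fall was nearly the same size, -0.73 ± 0.07 and -0.72 ± 0.05 (SE, limma adjusted p = 8.143e-05 and 2.288e-06). The difference between the lines was 0.011 with a 95% interval of -0.17 to 0.19.

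TEAD1 (chromosome 11, 12674591 to 12944483, plus strand) had 63.1, 33.0 and 67.9 FPKM in KYSE150 normoxia and 29.4, 32.0 and 31.7 in hypoxia. The groups were apart only narrowly, since normoxia replicate 2 was close to the hypoxic libraries. The change was -0.73 ± 0.24 (SE, limma adjusted p = 0.0300). Without replicate 2 it was -1.05 (adjusted p = 1.537e-06), whereas the call was lost without any other single KYSE150 library (adjusted p = 0.0681 to 0.0911) and under each of 3 rescalings (adjusted p = 0.0591 to 0.0817), and without the filter on low values (0.118). TEAD1 has the longest transcript of the members, 8477 nucleotides, and its log2 deviation in replicate 2 from replicates 1 and 3 was -0.97. Over all tested genes this deviation had a median of 0.29 for transcripts up to 1000 nucleotides and -0.46 for those over 8000. Across the 9 alternatives, which include removal of the transcript length trend, the KYSE150 change of TEAD1 lay between -0.75 and -0.56. The part of the replicate 2 deviation in the TEAD1 value was not tested further. In KYSE410, TEAD1 had 31.4, 34.5 and 32.9 FPKM under normoxia and 13.0, 12.6 and 12.02 in hypoxia. There it fell by 1.32 (SE 0.05, limma adjusted p = 5.121e-08), and by 0.86 with the length trend removed.

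The other family members were lower in level. TEAD3 rose in KYSE150 from 4.52 ± 0.138 to 7.27 ± 0.552 FPKM and fell in KYSE410 from 4.61 ± 0.145 to 2.86 ± 0.165 (SD, n = 3), and TEAD2 fell in KYSE410 from 10.1 ± 0.782 to 4.80 ± 0.362. Summed over TEAD1, TEAD2, TEAD3 and TEAD4, the family had 95.4, 67.2 and 102 FPKM in KYSE150 normoxia and 58.9, 60.5 and 61.0 in hypoxia. In KYSE410 the sum went from 67.8, 70.9 and 70.1 to 34.4, 33.1 and 32.0. TEAD1 made up 47.3 ± 1.21% of the KYSE410 sum in normoxia and 37.8 ± 0.225% in hypoxia, so that TEAD1 and TEAD4 were at nearly equal levels in hypoxia (12.5 and 13.0 FPKM). The ratio of TEAD1 to TEAD4 there was 1.497 ± 0.0635 and then 0.968 ± 0.0197, a log2 change of -0.63 that was -0.14 with the length trend removed. In KYSE150 the TEAD1 share overlapped between oxygen levels, at 66.2, 49.1 and 66.8% in normoxia and between 49.9 and 52.9% in hypoxia.

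CCN1 and CCN2 encode secreted matricellular proteins and are the most widely used target genes of YAP and TEAD. CCN2 (chromosome 6, 131948176 to 131951373, minus strand) had 15.7, 15.7 and 15.8 FPKM in KYSE150 normoxia and 6.13, 3.12 and 4.09 in hypoxia. The KYSE410 libraries had 6.47, 6.48 and 7.85 in normoxia and 1.53, 1.16 and 1.26 in hypoxia. Every hypoxic library was below every normoxic one in both lines. CCN2 fell by 1.66 in KYSE150 (SE 0.18, limma adjusted p = 1.325e-04) and by 1.77 in KYSE410 (SE 0.09, adjusted p = 3.215e-07), with mean levels 3.54 and 5.27 times lower on the FPKM scale. Only 1.52% and 2.71% of tested genes ranked at or below it, and the difference between lines was not called (-0.12, 95% interval -0.60 to 0.36). With a pseudocount of 0.1, which compresses low values less, it was -0.46 (limma adjusted p = 0.160).

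The stretch just before the CCN2 start is shown because CCN2 fell in both lines and TEAD factors read a known short motif there. TEAD factors bind GGAATG, searched here on both strands (CATTCC on the other) in the 250 bases before RefSeq starts on GRCh38.p14. Only starts for which a window was given were searched. CCN2 held 3 matches, 169, 104 and 95 bases before the start. At least 1 match was present in 11.9% of all 35116 such windows, at least 2 in 0.940% and at least 3 in 0.0826%. The CCN2 window, chr6:131951374-131951622 on the minus strand, reads as follows 5′ to 3′, with the matches in capitals.
CCN2: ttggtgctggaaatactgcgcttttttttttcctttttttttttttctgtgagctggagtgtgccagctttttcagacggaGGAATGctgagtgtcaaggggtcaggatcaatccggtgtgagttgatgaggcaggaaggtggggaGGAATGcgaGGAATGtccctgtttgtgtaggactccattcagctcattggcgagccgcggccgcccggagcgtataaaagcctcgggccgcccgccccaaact

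Windows were given for 7 members, with 10 starts, and 5 windows held the motif. ANKRD1 held 2 matches, 220 and 128 bases before its start. AMOTL2 and AJUBA each held 1, before the inner of their 2 starts, 69 and 59 bases away, and YAP1 held 1, 162 bases away. Annotated exons covered 189 of the 250 bases of the ANKRD1 window and 147 of this AMOTL2 window. They covered all 250 of this AJUBA window and of the YAP1 window. In CCN2 they covered 1 base, left out of the sequence above. LATS2 and WWTR1 held no match. The WWTR1 windows end at 149703523 and 149658275, whereas the RefSeq gene, on the minus strand, reaches 149724788. Its outermost start was therefore not searched. The sites of AMOTL2 and AJUBA, the members with the largest falls in KYSE150, and of the target gene ANKRD1, are compared here with the same capitals, each with 10 flanking bases, all on the minus strand. The YAP1 site is not printed, and YAP1 changed by -0.03 in KYSE150 (not called) and by -0.32 in KYSE410 (called lower). A match is a run of letters and was not tested for binding. Whether matches go with the changes in hypoxia was not tested either.
ANKRD1 distal, chr10:90921292-90921317: caccaccaaaGGAATGgccctctcac
ANKRD1 proximal, chr10:90921200-90921225: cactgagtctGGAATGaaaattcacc
AMOTL2, chr3:134374501-134374526: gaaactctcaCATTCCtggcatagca
AJUBA, chr14:22976886-22976911: gaagttggctGGAATGaagccaaagc

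The same windows were searched for ACGTG and GCGTG, the core letters read by hypoxia-inducible factors, on both strands. At least 1 ACGTG stood in 18.5% and at least 1 GCGTG in 32.2% of all windows. CCN2, ANKRD1 and AMOTL2 held neither. AJUBA, LATS2 and YAP1 held ACGTG, and AJUBA and WWTR1 held GCGTG.

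CCN1 (chromosome 1, 85580761 to 85583962, plus strand) fell in KYSE150 and was not called in KYSE410. In the first line it had 53.3, 61.7 and 58.4 FPKM under normoxia and 39.6, 25.2 and 19.6 in hypoxia. The hypoxic libraries were all lower but spread widely, and CCN1 fell by 1.07 (SE 0.22, limma adjusted p = 0.0035). In KYSE410 it had 330, 340 and 359 FPKM under normoxia and 314, 325 and 348 in hypoxia, and the groups overlapped. The KYSE410 change of -0.06 ± 0.05 was not called (adjusted p = 0.247). It turned to 0.15 and passed after median-of-ratios scaling (adjusted p = 0.0238), and was -0.73 after quantile normalization (adjusted p = 3.873e-07), so no direction is given for that line.

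The difference in CCN1 response, KYSE410 minus KYSE150, was 1.01 ± 0.25 (SE, limma interaction of line and oxygen, adjusted p = 0.0042), where 27.3% of genes were called higher in this test. Quantile normalization left 0.22 and ended the call (adjusted p = 0.459). Within libraries, CCN1 exceeded CCN2 3.40, 3.93 and 3.69 times in KYSE150 normoxia and 6.47, 8.09 and 4.81 times in hypoxia. In KYSE410 the ratio was 51.1, 52.4 and 45.8 in normoxia and 206, 279 and 276 in hypoxia. On the log2 scale its hypoxic mean was higher by 2.34, and by 1.32 after quantile normalization. Both lines therefore held relatively more CCN1 than CCN2 RNA in hypoxia (exact permutation p = 0.1 in each, the smallest possible). An antisense gene covers 8.34% of the CCN2 exon bases, and its reads cannot be told apart.

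ANKRD1 (chromosome 10, 90912096 to 90921276, minus strand), a nuclear ankyrin-repeat protein gene best known from muscle and a common YAP target, was the lowest of the members, above 19.0% of detected genes in KYSE150 hypoxia and above 57.4% in KYSE410 normoxia. In KYSE150 it had 0.198, 0.357 and 0.157 FPKM under normoxia and 0.000, 0.011 and 0.062 in hypoxia, with a mean too low for the test. Without a filter on low values it was called lower (-0.27, limma adjusted p = 0.0294). In KYSE410 it had 1.19, 1.63 and 0.907 FPKM under normoxia and 0.862, 0.904 and 0.749 in hypoxia. These groups were apart by only 0.003 FPKM, and the change of -0.27 ± 0.12 was not called (adjusted p = 0.0610). It passed without normoxia replicate 3 (-0.39, adjusted p = 0.0120).

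AMOTL2 and LATS2 are targets of YAP whose products hold YAP back, AMOTL2 by binding it at junctions and LATS2 by phosphorylating it. AMOTL2 (chromosome 3, 134355874 to 134375479, minus strand) had 46.9, 44.2 and 49.4 FPKM in KYSE150 normoxia and 11.6, 11.2 and 11.8 in hypoxia. In KYSE410 it had 52.3, 54.9 and 52.2 FPKM under normoxia and 18.5, 19.3 and 18.8 in hypoxia. The libraries of a group lay close together, and the groups were far apart in both lines. AMOTL2 fell by 1.93 in KYSE150 (SE 0.07, limma adjusted p = 1.013e-06) and by 1.45 in KYSE410 (SE 0.04, adjusted p = 9.508e-09). The fall was smaller in KYSE410 by 0.49 ± 0.07 (SE, interaction, adjusted p = 1.369e-04), but not after rescaling to a common sum (0.24, adjusted p = 0.0542). A processed pseudogene on the same strand shares 187 exon bases with AMOTL2, and another coding gene shares 50 with AJUBA.

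LATS2 (chromosome 13, 20973032 to 21061547, minus strand) hardly moved. It had 5.54, 4.64 and 5.81 FPKM in KYSE150 normoxia and 5.13, 4.81 and 5.36 in hypoxia, which overlap (change -0.05, 95% interval -0.28 to 0.18, limma adjusted p = 0.679). In KYSE410 it had 6.08, 6.55 and 6.23 in normoxia and 5.67, 5.35 and 5.04 in hypoxia. It was called there at -0.20 ± 0.06 (adjusted p = 0.0123), close to the median of all genes in that line, -0.21. The value was -0.017 after median-of-ratios scaling (adjusted p = 0.789) and 0.20 with the length trend removed (adjusted p = 0.0108), so its direction depends on the scaling.

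AJUBA (chromosome 14, 22971174 to 22982642, minus strand) encodes a LIM-domain protein of cell junctions that binds LATS kinases and restrains them. It had 41.5, 43.1 and 42.3 FPKM in KYSE150 normoxia and 8.26, 6.49 and 7.75 in hypoxia, a mean 5.64 times lower. KYSE410 had 70.0, 71.5 and 68.6 FPKM under normoxia and 32.7, 33.6 and 32.0 in hypoxia. AJUBA had the largest fall of the members in KYSE150, -2.36 ± 0.09 (SE, limma adjusted p = 1.190e-06), with 0.362% of tested genes ranking at or below it, and fell by 1.07 ± 0.03 in KYSE410 (adjusted p = 2.760e-08). The difference between lines, 1.28 ± 0.10 (interaction, adjusted p = 6.325e-07), kept its side of the threshold in all 9 alternatives and without each of the 12 libraries.

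**Figure D3:**
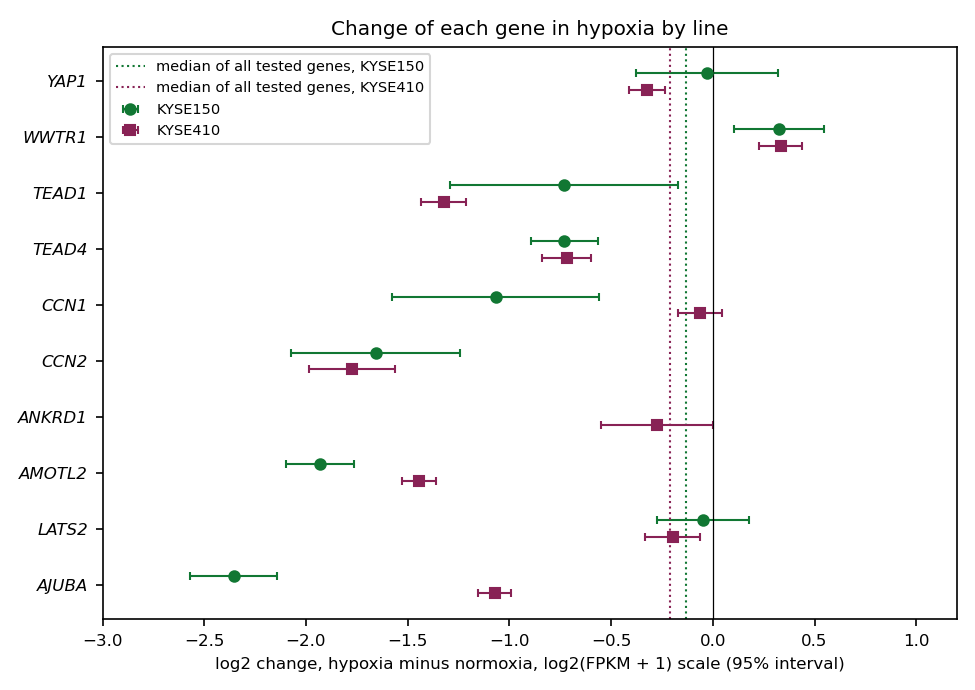
Log2 change of each gene, hypoxia minus normoxia on the log2(FPKM + 1) scale (horizontal axis), with its 95% interval from limma, for KYSE150 (circles) and KYSE410 (squares). Dotted lines are the medians of all tested genes, -0.13 and -0.21. AJUBA, AMOTL2 and CCN1 differ between lines, CCN2 and TEAD4 do not by this test, and ANKRD1 was tested only in KYSE410.

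The groups were apart with hypoxia lower for 7 of 10 members in KYSE150 and 8 of 10 in KYSE410, where this held for 42.6% and 52.7% of tested genes. The KYSE150 count includes ANKRD1, which was too low there to be among the tested genes (mean 0.131 FPKM). The response differed between lines for 3 of 9 members tested (CCN1, AMOTL2 and AJUBA, all higher in KYSE410), where 63.3% of tested genes were called in either direction. TEAD1 was not called in that test (-0.59, adjusted p = 0.0793, 95% interval -1.20 to 0.011), but it was without KYSE150 normoxia replicate 1, 2 or 3, at -0.73, -0.27 and -0.78 (limma adjusted p = 0.0406, 0.0075 and 0.0184). After rescaling to a common sum, TEAD1, TEAD4, YAP1 and LATS2 were called lower in KYSE410, YAP1 by -0.54 and LATS2 by -0.36 (adjusted p = 0.0388 and 0.0395).

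The order of levels differed between lines and with oxygen. Because each line has its own deposited table, levels are compared across lines without a test. In KYSE150 normoxia CCN1, TEAD1, AMOTL2, AJUBA and YAP1 led, from 57.8 to 37.2 FPKM on average, and of these neighbours only AMOTL2 and AJUBA did not overlap. In hypoxia YAP1 was the highest, above TEAD1, while AMOTL2 and TEAD4 (11.5 and 11.2 FPKM) overlapped. In KYSE410 CCN1 was first at both oxygen levels, with 343 FPKM in normoxia, above 99.6% of detected genes, followed by AJUBA. There TEAD1 went from the fourth place to the seventh, and CCN2, ninth in hypoxia, was apart from LATS2 above it and ANKRD1 below it. ANKRD1 was last in all 4 groups.

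**Figure D4:**
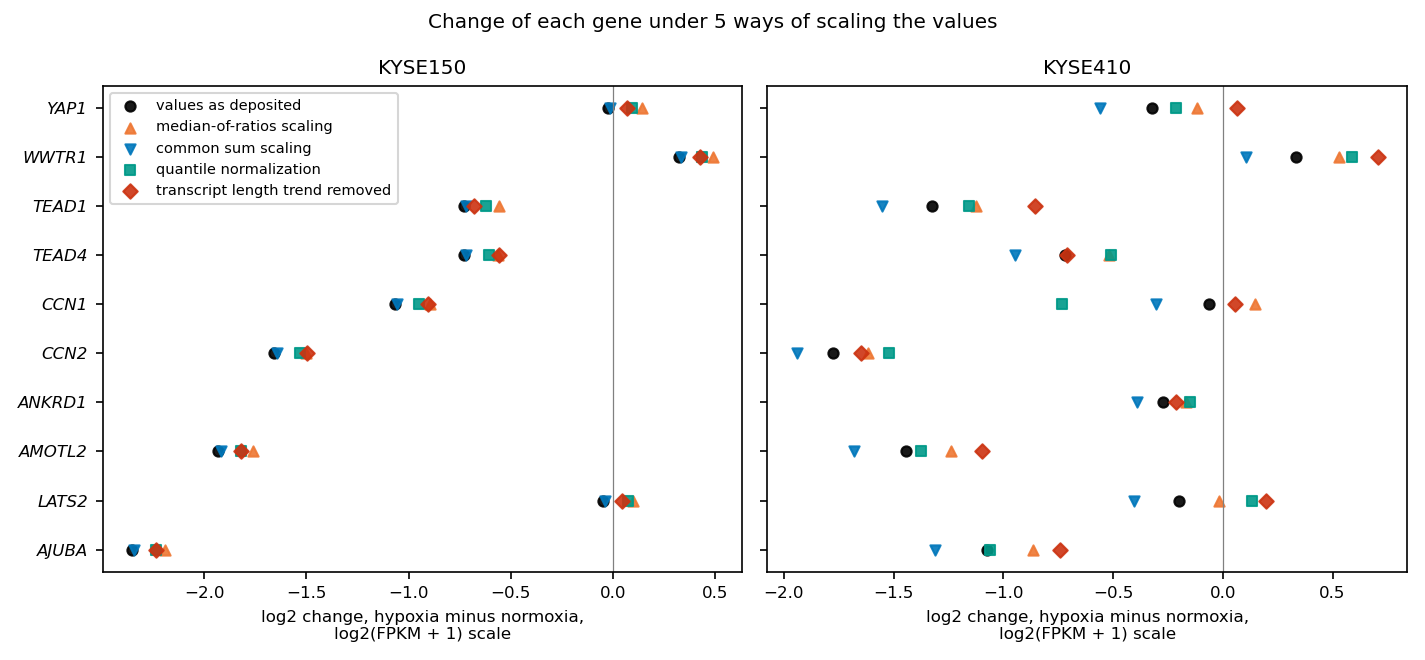
Log2 change of each gene, hypoxia minus normoxia (horizontal axis), computed from the deposited values and after 4 other treatments of the libraries, for each line. In KYSE150 YAP1 and LATS2 lie on both sides of 0, and in KYSE410 CCN1 ranges from -0.73 to 0.15 and YAP1 from -0.56 to 0.065, whereas TEAD4, CCN2, AMOTL2 and AJUBA stay below 0 throughout.

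The other genes of the pathway were taken from lists of kinases, cofactors, regulators and targets, also chosen with earlier results of these data known. Of 13 genes of the Hippo kinase cascade, which restrains YAP, 4 fell and 1 rose in KYSE150, where 38.8% of all tested genes fell and 23.5% rose. They included NF2, the gene of the scaffold merlin (-0.74), WWC1, the gene of the LATS activator KIBRA (-0.68), and the kinase gene TAOK3 (-0.52). STK3 rose by 0.19 (limma adjusted p = 0.0481), a call lost without any KYSE150 library except normoxia replicate 2. Leaving out normoxia replicate 2 gave 8 lower and 2 higher, and median-of-ratios scaling 3 lower and 4 higher. In KYSE410, 12 of the 13 fell and 0 rose, where 51.9% of all tested genes fell and 83.1% were called. WWC1 fell by 1.91, WWC2 by 1.69 and TAOK3 by 1.66, with WWC1 going from 45.3 ± 0.890 to 11.3 ± 0.999 FPKM (SD, n = 3). Removing the length trend left 9 lower and 2 higher in that line.

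Among the VGLL genes, whose products compete with YAP for TEAD, VGLL4 rose in both lines, to 12.1 ± 1.18 from 9.44 ± 0.161 FPKM in KYSE150 and to 11.9 ± 0.519 from 7.21 ± 0.735 in KYSE410 (limma adjusted p = 0.0117 and 3.475e-05). The KYSE150 call was lost without hypoxia replicate 1 (adjusted p = 0.0506). Of 8 tested junctional and cytoskeletal regulators, 3 fell and 0 rose in KYSE150, and 8 fell in KYSE410, against 38.8% and 51.9% of all tested genes. TJP1, the gene of the tight junction scaffold ZO-1, fell by 1.23 and 2.31, and the polarity gene SCRIB by 0.86 and 1.02. The phosphatase gene PTPN14, which binds YAP, fell by 1.53 in KYSE410, and FRMD6 by 0.40 in KYSE150. Leaving out normoxia replicate 2 raised the KYSE150 count to 6 lower, and removing the length trend left 6 lower and 2 higher in KYSE410.

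Further targets of a published YAP and TAZ signature moved in both directions in KYSE150, where 6 of 15 tested fell and 5 rose, with a median change of -0.0056. Over all tested genes 38.8% fell and 23.5% rose. GADD45A, a growth-arrest gene, fell by 2.84, FJX1 by 1.70 and the kinase gene NUAK2 by 1.09. IGFBP3, which encodes a carrier of insulin-like growth factors, rose by 2.89, from 18.5 ± 1.40 to 143 ± 7.38 FPKM, the receptor kinase gene AXL by 0.69 and F3, the tissue factor gene, by 0.46. In KYSE410, 10 of 13 fell and 1 rose (median -0.88), where 51.9% of all tested genes fell and 31.2% rose. F3 fell there from 372 ± 24.3 to 71.6 ± 2.19 FPKM, GADD45A by 1.40 and DOCK5 by 1.34, while IGFBP3 rose by 3.54. AXL fell there by 0.67, and its response differed between lines by -1.36 (limma interaction, adjusted p = 1.542e-08). Of the remaining CCN family, CCN3 rose in KYSE150 by 0.58 and was not among the KYSE410 genes. CCN5 rose in KYSE410 from 0.865 ± 0.092 to 4.76 ± 0.476 FPKM. In KYSE150 CCN5 was far higher, at 50.9 ± 8.40 and 61.2 ± 4.45 FPKM, and was not called (0.27, limma adjusted p = 0.0824).

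**Figure D5:**
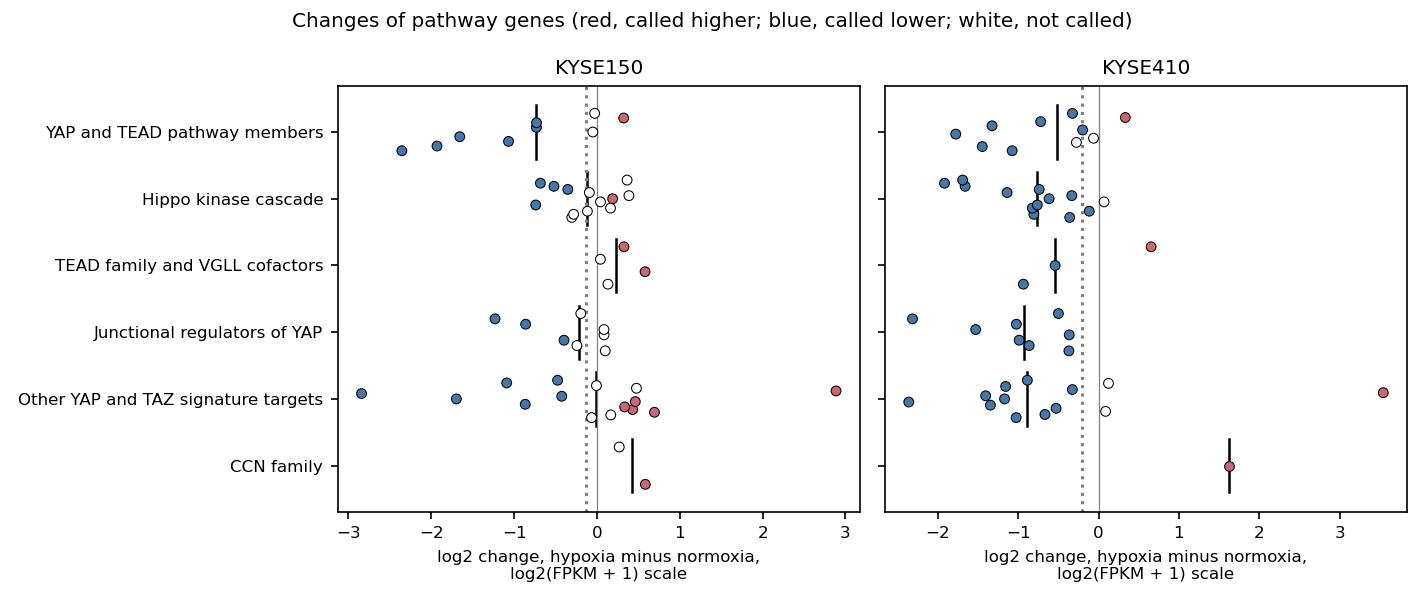
Log2 change, hypoxia minus normoxia (horizontal axis), of every tested gene of the 10 members and 5 further lists (vertical axis), for each line. Points are genes, coloured by limma's call, black bars are list medians and the dotted line is the median of all tested genes. In KYSE410 the kinase, junctional and target lists have medians of -0.76, -0.92 and -0.88, and in KYSE150 of -0.11, -0.22 and -0.0056.

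Genes of most similar pattern were sought among 8172 genes averaging 5 FPKM or more, by the root mean square difference of centred log2 values over the 12 libraries. For YAP1 the nearest were LIMD1 (0.067) and SPTLC2 (0.072), and for WWTR1 SMARCA2 (0.080) and GLUL (0.081). For CCN2 they were RNF41 (0.19), with group means of 21.2 and 6.11 FPKM in KYSE150 and 10.8 and 2.82 in KYSE410, and TXLNG (0.19). For CCN1 they were TPD52L1 (0.28) and CXCL8 (0.31). In KYSE150 TPD52L1 was at 4.71 and 2.31 FPKM and CXCL8 at 0.883 and 0.274, so that both entered through KYSE410. The differences are not comparable between members, whose own root mean square spread was 0.25 for YAP1, 0.26 for WWTR1, 1.05 for CCN2 and 1.59 for CCN1. Profiles span both lines, so a difference in level between lines counts as well as one with oxygen. Within KYSE150, normoxia replicate 2 had the lowest value of both YAP1 and LIMD1 (27.9 and 5.18 FPKM). Their KYSE410 changes were 0.065 and 0.14 with the transcript length trend removed.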

How the data were processed

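For either line the authors deposited a single table, whose values are taken as FPKM. The unit is inferred from the values, since the header names none: columns sum to between 351501 and 425094. Per the submitters' processing notes, hg38 was the build and HISAT2 2.2.1, fastp 0.22.0 and bcl2fastq 2.20 were among the tools. No quantifier, annotation or strand setting is given in the sources used here. Low values did not move in steps of whole reads: below 0.1 FPKM at most 0.541% of genes shared a ratio between a pair of libraries. Depth is therefore unknown and no counting interval is given.

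Genes averaging 1 FPKM or more in a line (12692 in KYSE150, 12054 in KYSE410) were tested with limma 3.58.1 under R 4.3.3 on log2(FPKM + 1), with a trended prior. The difference in response came from a joint fit of the 12 libraries over 12653 genes. P-values were adjusted by Benjamini-Hochberg over all tested genes. Each fit was tested on simulated data. Ratios used exact permutation tests (scipy 1.17.1). Gene positions, lengths and exon overlaps came from GENCODE 29 on GRCh38, and promoter windows from RefSeq on GRCh38.p14, where TEAD1, TEAD4 and CCN1 had no entry. Scripts ran on Python 3.11.15 with pandas 2.3.3.

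The members and lists were chosen with earlier results of these data known. Text names all 10 members and, per list, line and direction, up to 3 called genes of largest change. Listed genes missing from a table were not analysed here. Same-numbered libraries had deviations correlated at -0.069 to 0.084, so numbers were not taken to pair them. Alternatives changed 1 choice at a time: the scaling, the low-value filter, the pseudocount, the call threshold, a replicate block, a transcript length correction, or 1 library left out.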

Additional observations from a re-analysis of the deposited data

Results flagged for a closer look

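The response to hypoxia differed between lines, by the limma interaction of line and oxygen, for 3 of 9 members tested. Over all genes in this test 63.3% were called, 27.3% higher and 36% lower. The difference on the log2 scale, KYSE410 minus KYSE150, was 1.01 for CCN1, 0.49 for AMOTL2 and 1.28 for AJUBA. CCN1 fell in KYSE150 and was not called in KYSE410, while AMOTL2 and AJUBA fell in both lines and less in KYSE410. The CCN1 difference was not called after quantile normalization (0.22, limma adjusted p = 0.459). That of AMOTL2 was not called after rescaling to a common sum (0.24, limma adjusted p = 0.0542). Each difference includes the changes of both lines, in which oxygen and sample-sheet number cannot be told apart.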

How the results depend on the processing

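The balance of all calls moved with the treatment of the libraries. The share of called genes that were higher was 37.7% in KYSE150 and 37.6% in KYSE410, and 52.2% and 48.5% after median-of-ratios scaling, which moved the median change of all genes to 0.017 and -0.029. It was 49.3% and 49.8% after quantile normalization, and 49.2% and 50.9% with the length trend removed. Rescaling to a common sum gave 26.6% in KYSE410, and 28.1% in place of 43.1% for the difference in response. In KYSE150 the 1 member called higher became 0 under a common sum and at a threshold of 0.01, and was 0 to 1 when libraries were left out. In KYSE410 the count of members called higher was 2 after median-of-ratios scaling, 0 under a common sum and 2 with the length trend removed. Members with a lower response in KYSE410 numbered 0, but 4 under a common sum and 0 to 1 when libraries were left out. Before rescaling, FPKM sums of the hypoxic KYSE410 libraries were 417345, 415926 and 425094. All lay above the normoxic sums of that line, 351501, 356994 and 354655. The KYSE150 sums overlapped between oxygen levels, with 382990, 377909 and 378223 for hypoxic libraries and 370573, 413967 and 366156 for normoxic ones. The cause of the shifts under these treatments was not tested.

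Some small changes turned in sign. In KYSE150, YAP1 was 0.14, 0.094 and 0.068 and LATS2 0.098, 0.072 and 0.044 after median-of-ratios scaling, quantile normalization and removal of the length trend. In KYSE410, CCN1 was 0.15 after median-of-ratios scaling and 0.055 without the length trend, YAP1 was 0.065 without it, and LATS2 was 0.13 after quantile normalization and 0.20 without the trend. For the difference in response, a common sum gave -0.23 for both WWTR1 and TEAD4, quantile normalization 0.012 for CCN2 and 0.064 for LATS2, and removal of the length trend -0.14 for TEAD4 and 0.13 for LATS2. Leaving out libraries gave -0.22 to 0.072 for YAP1 and -0.13 to 0.0060 for LATS2 in KYSE150, and for the difference in response -0.045 to 0.11 for WWTR1, -0.031 to 0.050 for TEAD4 and -0.30 to 0.095 for CCN2.

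TEAD4, CCN2, AMOTL2 and AJUBA kept direction and call in both lines under every alternative that could be run and without each library, as did TEAD1 in KYSE410 and CCN1 in KYSE150. CCN2 and ANKRD1 in KYSE410 fell below a mean of 5 FPKM and had no value there. With the replicate number as a block, 6 members were lower and 1 higher in KYSE150, and 8 and 1 in KYSE410, where ANKRD1 was added (-0.27, limma adjusted p = 0.0382); the difference in response kept 3 higher and 0 lower.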
